A study of Mus musculus with 12 samples.

Results

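The genes described are H2-K1, H2-D1, H2-Q4, H2-Q6, H2-Q7, H2-T23, H2-M3, B2m and Nlrc5, chosen by name as the MHC class I heavy chains, their light chain and their transactivator. These are 9 of the 55322 gene rows of the deposited FPKM table (reads scaled to the length of the gene and the depth of the library). The table covers conventional dendritic cells (cDCs) sorted from mouse spleen, in 4 groups of 3 libraries: L-cDC1 and M-cDC1, then L-cDC2 together with M-cDC2. The titles do not spell out L and M, and the series title speaks of cDCs of lymphoid origin. The genotype label is Il7r-cre; Rosa26-lsl-tdTomato in all 12 libraries, so both L and M cells carry a Cre recombinase driven by Il7r and a Cre-dependent red reporter. The growth protocol instead names wild-type C57BL/6J mice, 7 to 8 weeks old, and the labels do not say which cells were sorted as reporter-positive. They also tie no library to an animal, and the p-values below rest on the spread between libraries alone, which may be technical.

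MHC class I molecules are heavy chains bound to beta-2-microglobulin and a peptide, and show peptides from inside the cell to CD8 T cells. Peptides cut by the proteasome are carried into the endoplasmic reticulum by the TAP transporter and loaded there. cDC1s are known for cross-presentation, the loading of peptides from engulfed material onto class I. Nlrc5 binds no DNA by itself and acts on class I promoters together with RFX, CREB/ATF and NF-Y factors at the X and Y boxes of these promoters, which also hold sites for NF-kB and for interferon regulatory factors.

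Of the 9 genes, 8 matched the RefSeq promoter table of mouse build GRCm38.p6, which gives 250 bases before to 50 bases after a gene's start, and Nlrc5 is named only. The windows below show 140 bases of each promoter around the Y box, because they lay out the elements that the class I genes have in common. Capitals mark 4 motifs, searched on both strands: the NF-kB site (GGGGA followed directly by TTCCC), the interferon regulatory factor site (GAA or GAAA, then any 2 bases, then GAAA), the X2 box core TGACG and the Y box core CCAAT. The motifs were chosen after the sequences had been read, and no matches overlapped in these windows. The windows are at chr17:34000334-34000473 (minus strand) for H2-K1, chr17:35262908-35263047 (plus) for H2-D1, chr17:35379428-35379567 (plus) for H2-Q4, chr17:35424661-35424800 (plus) for H2-Q6, chr17:35439005-35439144 (plus) for H2-Q7, chr17:36032724-36032863 (minus) for H2-T23, chr17:37270103-37270242 (plus) for H2-M3 and chr2:122147524-122147663 (plus) for B2m. Each is printed 5′ to 3′ on its gene's strand.
H2-K1: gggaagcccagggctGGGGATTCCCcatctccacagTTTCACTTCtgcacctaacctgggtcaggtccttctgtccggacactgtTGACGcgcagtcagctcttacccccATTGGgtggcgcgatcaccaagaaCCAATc
H2-D1: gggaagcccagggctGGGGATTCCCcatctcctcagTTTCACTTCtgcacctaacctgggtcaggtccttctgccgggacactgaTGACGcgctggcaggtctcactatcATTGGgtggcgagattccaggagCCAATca
H2-Q4: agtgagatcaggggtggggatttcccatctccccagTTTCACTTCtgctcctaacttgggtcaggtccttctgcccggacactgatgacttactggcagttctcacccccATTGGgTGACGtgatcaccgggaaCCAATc
H2-Q6: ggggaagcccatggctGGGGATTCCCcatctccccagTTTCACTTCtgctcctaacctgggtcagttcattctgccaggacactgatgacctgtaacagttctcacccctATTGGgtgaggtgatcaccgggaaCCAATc
H2-Q7: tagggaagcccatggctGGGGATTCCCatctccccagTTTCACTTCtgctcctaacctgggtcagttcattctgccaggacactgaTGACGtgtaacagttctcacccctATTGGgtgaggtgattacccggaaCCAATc
H2-T23: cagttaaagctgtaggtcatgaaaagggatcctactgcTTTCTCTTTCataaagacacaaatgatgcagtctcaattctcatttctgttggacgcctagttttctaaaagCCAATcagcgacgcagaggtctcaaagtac
H2-M3: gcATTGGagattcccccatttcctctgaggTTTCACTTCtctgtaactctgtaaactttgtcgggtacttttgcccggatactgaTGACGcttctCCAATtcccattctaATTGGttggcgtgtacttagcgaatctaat
B2m: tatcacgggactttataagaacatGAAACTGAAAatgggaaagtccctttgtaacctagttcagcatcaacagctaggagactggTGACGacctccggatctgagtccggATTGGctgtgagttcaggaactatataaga
The NF-kB site in the exact spelling above was found in 4 of the 8 promoters, those of H2-K1, H2-D1, H2-Q6 and H2-Q7. It was found in 0.107% of the 32851 promoters in the table. Other spellings of NF-kB sites were not searched, so the remaining promoters may hold one. The 0.107%, and the count with all 4 motifs below, hold for this spelling alone. The interferon regulatory factor site was found in 8 of 8, against 10.4% of all promoters. The X2 core was found in 6 of 8, all but H2-Q6 and H2-T23, against 20.8%, and in the H2-Q4 window it lay on the far side of the ATTGG. The Y core was found in 8 of 8, against 37.4%. All 4 motifs together occurred in 4 of the 32851 promoters (0.0122%), which were 2 listed for H2-K1 and 1 each for H2-D1 and H2-Q7. A match is a description of letters and not a measured binding site.

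Library totals recovered from the FPKM values were 15879864 to 24498235 reads, so that 3 reads on a gene of 1 kb were worth 0.122 to 0.189 FPKM. A gene was tested if 3 or more libraries reached 1 FPKM, which all 9 genes did, among 12434 in all. The thinnest was H2-Q4, with 195 to 456 reads per library, and H2-D1 had 51947 to 112858. The cDC1 and cDC2 labels were checked against fixed markers. The summed level of 8 cDC1 markers was 1348 to 1433 FPKM in L-cDC1 and 1376 to 1383 FPKM in M-cDC1, against 66.6 to 77.6 FPKM in L-cDC2 and 80.8 to 84.2 FPKM in M-cDC2. The sum of 6 cDC2 markers was 7.03 to 7.25 FPKM in L-cDC1 and 5.37 to 8.996 FPKM in M-cDC1, against 635 to 752 FPKM in L-cDC2 and 774 to 898 FPKM in M-cDC2. The 13 B cell genes summed to 614 to 990 FPKM in L-cDC1 and 309 to 354 FPKM in M-cDC1, and to 934 to 3447 FPKM in L-cDC2 and 354 to 378 FPKM in M-cDC2. The 10 T and NK cell genes summed to 11.3 to 18.6 FPKM in L-cDC1 and 0.474 to 0.954 FPKM in M-cDC1, and to 36.9 to 100.7 FPKM in L-cDC2 and 2.07 to 2.48 FPKM in M-cDC2. The B cell factor Pax5 was listed at 0 in all M libraries, and averaged 0.196 FPKM in L-cDC1 and 0.495 FPKM in L-cDC2. Of the 13 B cell genes, 2 were at 0 throughout M-cDC1 and 1 throughout M-cDC2. Another, Ighm, averaged 313 FPKM in M-cDC1 and 322 FPKM in M-cDC2. The part of B, T and NK cells in the class I values below was not tested. In such bulk samples, fewer cells of a type and less RNA per cell cannot be told apart.

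B2m, H2-D1 and H2-K1 were the most abundant of the 9 genes in every group, and the transactivator Nlrc5 and H2-Q4 were among the scarcest. Averaged over the 12 libraries, B2m stood at 2357 FPKM, H2-D1 at 1526 FPKM and H2-K1 at 867 FPKM. The gene lengths behind FPKM were 2938 bases for H2-K1, 4265 for H2-Q7 and 2889 for H2-T23. Their longest coding transcripts in GENCODE M21 had 1619, 1523 and 1472 bases. For B2m, H2-Q6 and H2-M3 the gene length equalled that of the transcript. FPKM may thus understate some heavy chains against B2m, and levels, shares and ratios between genes rest on these lengths. H2-T23 averaged 260 FPKM and H2-M3 155 FPKM. H2-Q6 averaged 24.4 FPKM, H2-Q7 16.6 FPKM, Nlrc5 12.6 FPKM and H2-Q4 5.46 FPKM. The classical heavy chains H2-K1 and H2-D1, which present peptides to most CD8 T cells, had the highest levels of the 7 heavy chains. Their share of the 7 summed heavy chains was 84.7% ± 0.506 in L-cDC1 and 84.7% ± 0.399 in M-cDC1, and 82.0% ± 0.853 in L-cDC2 and 83.9% ± 0.453 in M-cDC2 (SD, n = 3 each).

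**Figure D1:**
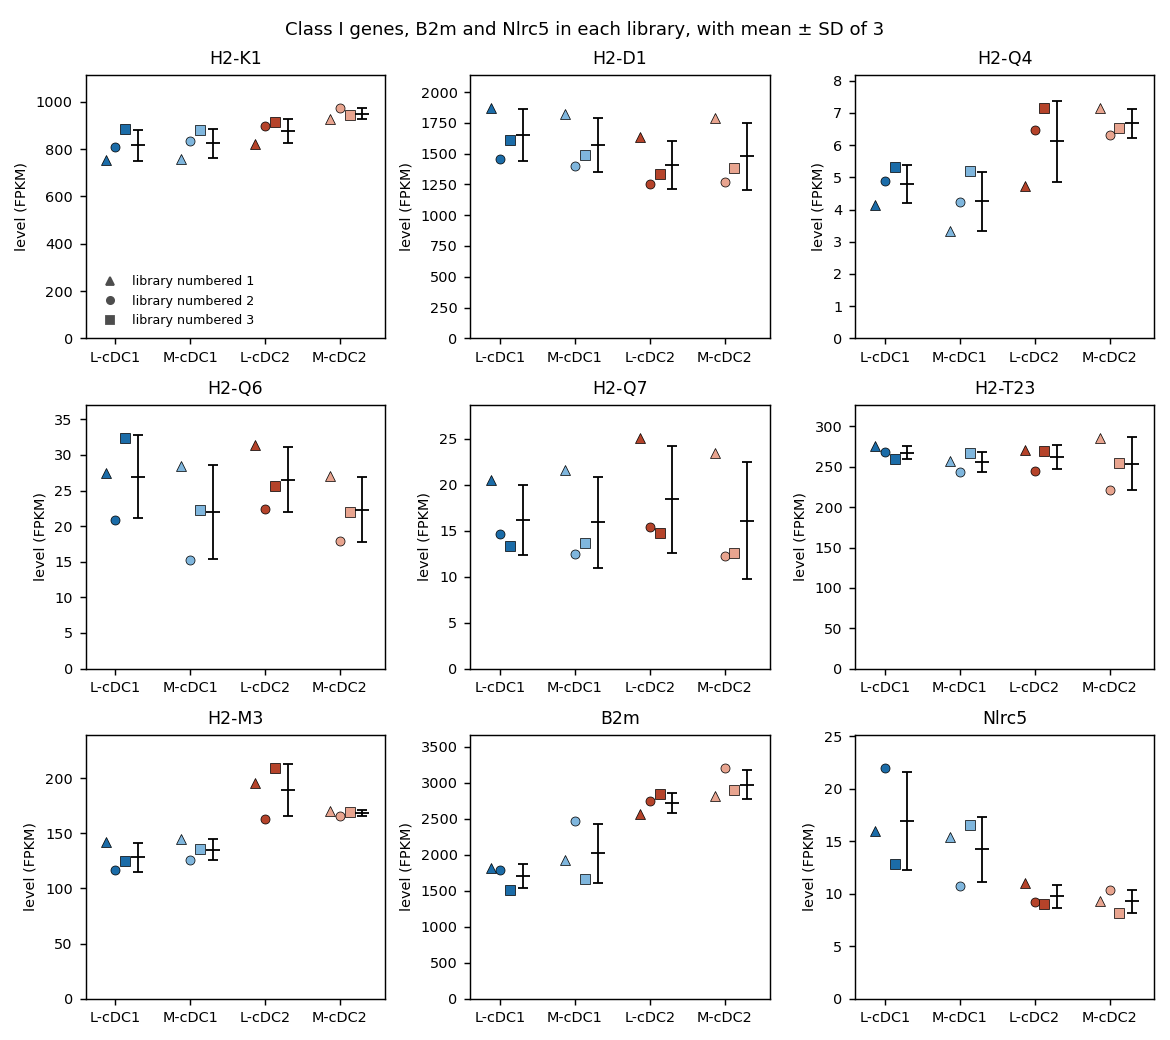
Level in FPKM (y axis, from 0) of each of the 9 genes in the 12 libraries, by group (x axis). Triangles, circles and squares are libraries numbered 1, 2 and 3, and the bar beside them is the mean ± SD of 3. B2m and H2-M3 sit lower, and Nlrc5 higher, in the cDC1 groups, while H2-T23 stays between 221 and 286 FPKM in all 12 libraries.

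The first question was whether L and M cells differ in class I RNA within a subset. None of the 9 genes passed the test in cDC1 or in cDC2 (limma, adjusted p under 0.05), and none had an unadjusted p under 0.05 in either. Over all genes tested, 0.394% were called for L minus M in cDC1 (0.354% higher and 0.0402% lower in L-cDC1). In cDC2 1.83% were called (1.04% higher and 0.788% lower in L-cDC2). With limma-voom on the recovered reads, the count was also 0 of 9 in each. B2m, the light chain without which most class I heavy chains do not reach the cell surface, had 1817, 1784 and 1516 FPKM in L-cDC1, against 1935, 2465 and 1665 FPKM in M-cDC1. These libraries overlap, and the log2 difference was -0.23 ± 0.13 (SE, 95% interval -0.50 to 0.04, limma adjusted p = 0.583). In cDC2, B2m was 2571, 2752 and 2846 FPKM in L-cDC2, against 2817, 3209 and 2903 FPKM in M-cDC2, with a log2 difference of -0.13 (interval -0.40 to 0.15, limma adjusted p = 0.815).

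H2-K1 had 754, 807 and 887 FPKM in L-cDC1, against 760, 835 and 881 FPKM in M-cDC1. The log2 difference was -0.02 (interval -0.21 to 0.17, limma adjusted p = 0.979). In cDC2, H2-K1 was 820, 898 and 913 FPKM in L-cDC2, against 929, 976 and 945 FPKM in M-cDC2. All 3 L-cDC2 libraries were thus below all 3 M-cDC2 libraries, but the log2 difference of -0.12 did not pass the test (interval -0.31 to 0.07, limma adjusted p = 0.733). H2-D1 had 1874, 1458 and 1611 FPKM in L-cDC1, against 1818, 1401 and 1492 FPKM in M-cDC1. It had 1631, 1255 and 1338 FPKM in L-cDC2, against 1786, 1268 and 1382 FPKM in M-cDC2. The L and M libraries of H2-D1 overlap in each subset, with log2 differences of 0.07 in cDC1 and -0.06 in cDC2 (limma adjusted p = 0.930 and 0.940).

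Among the nonclassical heavy chains, H2-T23 (Qa-1), which shows a class I leader peptide to NKG2A receptors, was the steadiest of the 9. It had 275, 269 and 259 FPKM in L-cDC1 and 257, 243 and 268 FPKM in M-cDC1. It had 271, 244 and 270 FPKM in L-cDC2 and 286, 221 and 255 FPKM in M-cDC2. The SD of its log2 values over the 12 libraries was 0.0993, and 0.281% of the 12434 genes had a smaller one. Of the 476 genes that average at least 100 FPKM, 8 had a smaller SD than H2-T23 and 19 a smaller one than H2-K1 (0.121). The 95% intervals of its L minus M difference were -0.14 to 0.28 in cDC1 and -0.16 to 0.26 in cDC2. The widest SDs were those of Nlrc5 (0.407), B2m (0.371) and the Qa-2 genes H2-Q7 (0.360) and H2-Q6 (0.312). The L minus M differences of H2-Q6 and H2-Q7 were 0.04 to 0.30. H2-Q6 in cDC1 was at 0.30, with an interval of -0.18 to 0.79 (limma adjusted p = 0.723). Nlrc5 had log2 differences of 0.23 in cDC1 (interval -0.19 to 0.65) and 0.07 in cDC2 (interval -0.35 to 0.49), with limma adjusted p = 0.769 and 0.948. H2-M3 and H2-Q4 also overlapped between L and M in each subset, at -0.08 and 0.15 in cDC1 and 0.16 and -0.12 in cDC2.

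**Figure D2:**
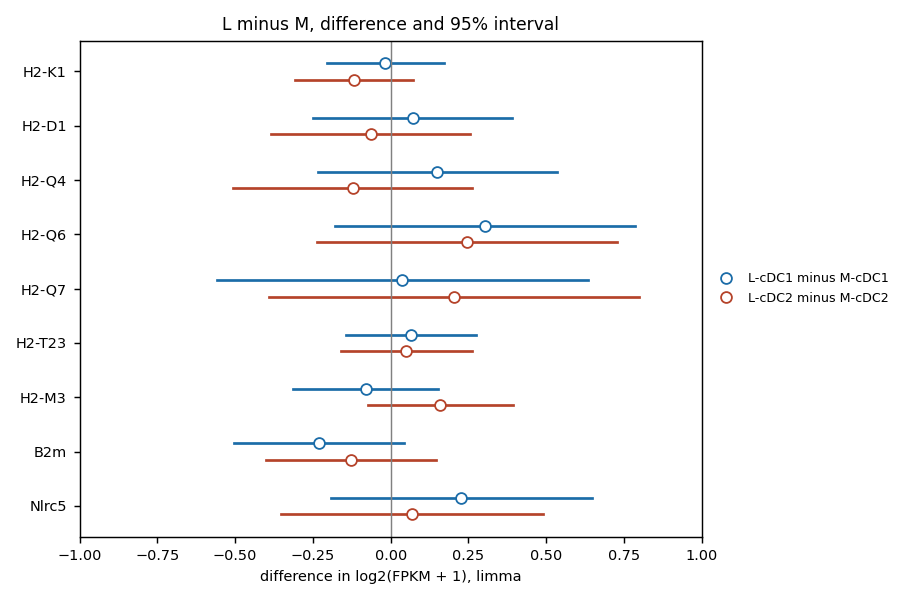
Difference in log2(FPKM + 1), L minus M (x axis), of each gene (rows) in cDC1 (blue) and cDC2 (red), with its 95% interval from limma. Every interval spans 0, and open circles mark that no difference passed the test.

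Whether L minus M itself differs between the subsets was tested as an interaction. None of the 9 genes passed (limma), none had an unadjusted p under 0.05, and limma-voom called 0 as well. Over all genes, 0.298% passed, 0.193% with the L minus M difference higher in cDC1 and 0.105% with it lower. The interaction ran from -0.24 for H2-M3 to 0.27 for H2-Q4 on the log2 scale, with limma adjusted p from 0.731 to 0.991.

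The second question was how cDC1s and cDC2s differ. B2m and H2-M3 were lower in cDC1 in both L and M, and Nlrc5 was higher. H2-Q4 was lower in cDC1 in M. In L, 3 of the 9 genes passed the test, 1 higher and 2 lower, where 39.5% of all genes passed (limma). In M, 4 passed, 1 higher and 3 lower, where 38.1% of all genes passed. The members' counts are thus near the background of a comparison in which a large share of all genes moved. In L, 12.9% of all genes were called higher and 26.6% lower in cDC1, and in M 12.7% and 25.4%.

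Those splits depend on scaling. As deposited, the median log2 difference of all genes was -0.19 in L and -0.18 in M, and 32.7% and 33.2% of the calls were higher in cDC1. After median-of-ratios scaling the medians were -0.04 and -0.03, and 48.7% and 48.9% of the calls were higher. After quantile normalization, 52.6% and 53.4% were higher.

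Of the members that passed in both, the light chain B2m is the most abundant. Its means were 1706 ± 165 FPKM in L-cDC1 and 2723 ± 140 FPKM in L-cDC2, and 2021 ± 407 FPKM in M-cDC1 and 2976 ± 206 FPKM in M-cDC2 (SD, n = 3 each). Every cDC1 library was below every cDC2 library of the same kind. The log2 difference was -0.68 ± 0.13 in L (SE, limma adjusted p = 0.000776) and -0.57 ± 0.13 in M (adjusted p = 0.00276). It passed after median-of-ratios scaling at -0.48 and -0.38 (limma adjusted p = 0.0126 and 0.0444), and stood at -1.12 in L and -0.96 in M after quantile normalization. That step sets values by rank and made L minus M of B2m in cDC2 exactly 0, so its sizes are uncertain for such abundant genes. For cDC1 minus cDC2 in M, the B2m call ended when no filter on low genes was used (limma adjusted p = 0.0553).

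H2-M3, which presents N-formylated peptides of bacterial and mitochondrial origin, followed the same direction. It had 142, 117 and 125 FPKM in L-cDC1, against 196, 163 and 209 FPKM in L-cDC2. It had 145, 126 and 136 FPKM in M-cDC1, against 170, 165 and 169 FPKM in M-cDC2, and the subsets did not overlap in either. The log2 difference was -0.56 ± 0.11 in L (SE, limma adjusted p = 0.00103), and -0.36 after median-of-ratios scaling (adjusted p = 0.018). In M it was -0.32 ± 0.11 (limma adjusted p = 0.0338), which became -0.12 after median-of-ratios scaling (adjusted p = 0.447). The call in M also ended without M-cDC1 replicate 2 or 3, or without any of the 3 M-cDC2 libraries (limma adjusted p = 0.0581 to 0.117).

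Nlrc5 went the other way. It had 15.99, 22.002 and 12.9 FPKM in L-cDC1, against 11.04, 9.26 and 9.06 FPKM in L-cDC2, with no overlap. The log2 difference in L was 0.71 ± 0.20 (SE, limma adjusted p = 0.0107). It had 15.4, 10.7 and 16.5 FPKM in M-cDC1, against 9.30, 10.3 and 8.20 FPKM in M-cDC2, with no overlap. In M it was 0.55 ± 0.20 (SE, limma adjusted p = 0.0394). Median-of-ratios scaling enlarged these differences, to 0.89 in L and 0.73 in M (limma adjusted p = 0.00188 and 0.00713). Without L-cDC1 replicate 2, its highest library, the difference in L was 0.51 (limma adjusted p = 0.053). In M the call ended without M-cDC1 replicate 1 or 3 or M-cDC2 replicate 1 or 3 (limma adjusted p = 0.0798 to 0.14), and also with no filter on low genes (0.11), no intensity trend (0.0537) or only both M groups fitted (0.0509).

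H2-Q4 (Qb-1), a nonclassical heavy chain, had 3.34, 4.22 and 5.19 FPKM in M-cDC1, against 7.17, 6.33 and 6.52 FPKM in M-cDC2. These libraries do not overlap, and the log2 difference was -0.56 ± 0.18 (SE, limma adjusted p = 0.0241). After median-of-ratios scaling it was -0.39 (adjusted p = 0.11), and the call ended without M-cDC1 replicate 1 or 2 or M-cDC2 replicate 1 or 3 (limma adjusted p = 0.0545 to 0.105). In L it had 4.16, 4.89 and 5.33 FPKM in L-cDC1, against 4.72, 6.49 and 7.15 FPKM in L-cDC2, which overlap (log2 difference -0.29, limma adjusted p = 0.221).

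The classical heavy chains did not pass this test as deposited. With library number fitted as a block, H2-K1 passed in M and H2-D1 in L (limma adjusted p = 0.0306 and 0.0118). Without the block, the values were as follows. H2-K1 was -0.11 in L (interval -0.29 to 0.08, limma adjusted p = 0.368) and -0.21 in M (interval -0.39 to -0.02, adjusted p = 0.0821). In M all 3 cDC1 libraries of H2-K1 were below all 3 cDC2 libraries. After median-of-ratios scaling H2-K1 was 0.09 in L and -0.01 in M, and after quantile normalization it passed at -0.40 in each (limma adjusted p = 0.00111 and 0.00112). H2-D1 was 0.23 in L (interval -0.09 to 0.55, limma adjusted p = 0.242) and 0.09 in M (interval -0.23 to 0.41, adjusted p = 0.666). H2-D1 passed in L after median-of-ratios scaling at 0.43 (limma adjusted p = 0.0382) and with limma-voom at 0.42 (adjusted p = 0.0171). After quantile normalization it was -0.13 in L and -0.28 in M. The direction of H2-K1 in L, and of H2-D1 in L and M, thus flips with the scaling. H2-T23, H2-Q6 and H2-Q7 lay between -0.16 and 0.03 in L and between -0.04 and 0.02 in M, with limma adjusted p of at least 0.677. After median-of-ratios scaling H2-T23 was 0.23 in L and 0.22 in M, not called either (limma adjusted p = 0.0877 and 0.109).

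**Figure D3:**
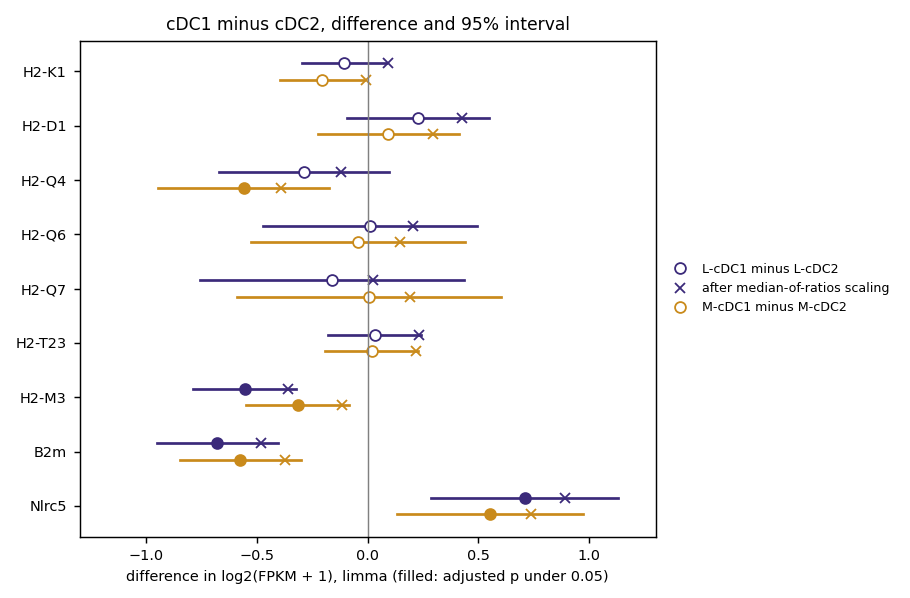
Difference in log2(FPKM + 1), cDC1 minus cDC2 (x axis), of each gene (rows) in L (purple) and M (ochre), with its 95% interval from limma. Filled circles passed at an adjusted p under 0.05, and crosses give the value after median-of-ratios scaling. B2m and H2-M3 lie left of 0 and Nlrc5 right of 0, while the H2-K1 cross in L lies at 0.09, right of 0, and its circle at -0.11, left of 0.

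In order of level as deposited, B2m and H2-K1 were highest in M-cDC2, then L-cDC2, M-cDC1 and L-cDC1. For B2m the step between L-cDC2 and M-cDC1 exceeded the larger SD and had no overlap, that between M-cDC2 and L-cDC2 exceeded it with overlapping libraries, and M-cDC1 and L-cDC1 did not differ beyond their spread. For H2-K1 the step between M-cDC2 and L-cDC2 exceeded the spread, and the other neighbours did not differ beyond it. The H2-K1 order depends on scaling: L-cDC1 minus L-cDC2 was 0.09 after median-of-ratios scaling, and L minus M was 0.09 in each subset after quantile normalization. H2-M3 was highest in L-cDC2, then M-cDC2, M-cDC1 and L-cDC1, and of these steps that between M-cDC2 and M-cDC1 exceeded the spread. Nlrc5 ran from L-cDC1 through M-cDC1 and L-cDC2 to M-cDC2, with a step beyond the spread between M-cDC1 and L-cDC2, whose libraries overlap slightly. H2-Q4 ran from M-cDC2 through L-cDC2 and L-cDC1 to M-cDC1, with a step beyond the spread between L-cDC2 and L-cDC1, whose libraries also overlap. No neighbours of H2-D1, H2-Q6, H2-Q7 or H2-T23 differed beyond their spread.

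Heavy chain RNA and light chain RNA stood in different proportion in the subsets. The 7 heavy chains summed to 2907 ± 205 FPKM in L-cDC1 and 2787 ± 188 FPKM in L-cDC2, and to 2829 ± 198 FPKM in M-cDC1 and 2896 ± 295 FPKM in M-cDC2 (SD, n = 3 each). Their sum divided by B2m does not depend on the scaling of a library, though its size depends on the gene lengths behind FPKM. It was 1.70, 1.51 and 1.94 in L-cDC1, against 1.16, 0.946 and 0.976 in L-cDC2. It was 1.57, 1.07 and 1.69 in M-cDC1, against 1.15, 0.831 and 0.962 in M-cDC2. The cDC1 libraries were above the cDC2 libraries of the same kind, except M-cDC1 replicate 2, which was below M-cDC2 replicate 1. The mean difference, cDC1 minus cDC2, was 0.689 in L and 0.463 in M. These ratios are given as a description with no p-value, since they sum genes chosen with results of these data known. H2-K1 over H2-D1, likewise free of library scaling, was 0.502 ± 0.0865 in L-cDC1 and 0.633 ± 0.114 in L-cDC2. It was 0.535 ± 0.101 in M-cDC1 and 0.658 ± 0.127 in M-cDC2, with overlapping libraries in L and in M. In order of library number it was 0.402, 0.554 and 0.550 in L-cDC1, against 0.503, 0.715 and 0.682 in L-cDC2. It was 0.418, 0.596 and 0.590 in M-cDC1, against 0.520, 0.769 and 0.684 in M-cDC2. Each cDC1 library was thus below the cDC2 library of the same number and kind.

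**Figure D4:**
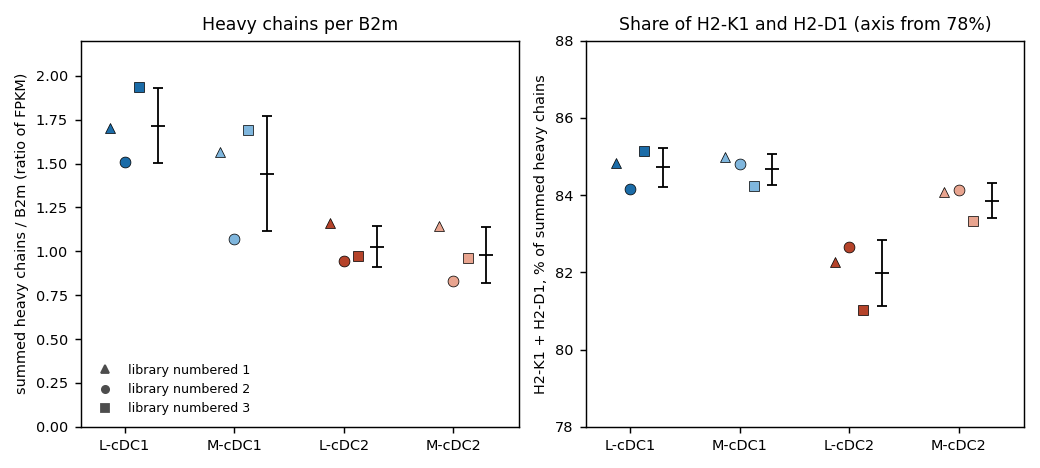
Left, the sum of the 7 heavy chains divided by B2m (ratio of FPKM). Right, H2-K1 and H2-D1 as a percentage of the 7 summed heavy chains. Points are libraries by group, bars are the mean ± SD of 3, and the right axis does not start at 0. On the left the cDC1 libraries run from 1.07 to 1.94 and the cDC2 libraries from 0.831 to 1.16, which overlap.

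The rest of the class I pathway was read from lists of genes, given as counts of called genes and median log2 differences. For L minus M in cDC1 and for the interaction, no gene of the 6 lists was called (limma), against 0.394% and 0.298% of all genes. Of the lists' genes, 4 reached an unadjusted p under 0.05 for L minus M in cDC1 and 6 for the interaction. The lists held 7 to 14 tested genes each, and the share of all genes at that level was not counted. For L minus M in cDC2, where 1.83% of all genes were called, the calls were Fcgrt and Hfe. They are 2 of the 7 tested class I-like genes outside the MHC. Fcgrt, the neonatal Fc receptor, was 20.4 ± 2.25 FPKM in L-cDC2 and 34.4 ± 3.05 FPKM in M-cDC2 (log2 difference -0.73, limma adjusted p = 0.00213). Hfe, which regulates iron uptake, was 57.4 ± 5.45 FPKM in L-cDC2 and 77.8 ± 4.68 FPKM in M-cDC2 (log2 difference -0.43, limma adjusted p = 0.0397). The Hfe call ended when any 1 of 9 of the 12 libraries was left out (limma adjusted p up to 0.152).

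Genes of peptide supply and loading were mostly higher in cDC1. Of 13 genes, 11 were higher and 0 lower in L-cDC1 than in L-cDC2, with a median log2 difference of 0.95, against -0.19 over all genes. In M-cDC1 against M-cDC2, 10 were higher and 0 lower, with a median of 0.83, against -0.18 over all genes. Over all genes, 12.9% were called higher and 26.6% lower in L, and 12.7% higher and 25.4% lower in M, a split that moved to 48.7% and 48.9% of calls higher after median-of-ratios scaling. Pdia3, the ERp57 chaperone of the loading complex, was 565 ± 71.7 FPKM in L-cDC1 and 217 ± 8.75 FPKM in L-cDC2, and 590 ± 48.5 FPKM in M-cDC1 and 228 ± 31.8 FPKM in M-cDC2 (log2 difference 1.37 in each). Psmb9, an immunoproteasome subunit that neighbours Tap1, was 274 ± 11.7 FPKM in L-cDC1 and 122.9 ± 5.80 FPKM in L-cDC2 (1.15, limma adjusted p = 1.43e-07). Calr, the chaperone calreticulin, was 238 ± 13.2 FPKM in L-cDC1 and 110.4 ± 2.85 FPKM in L-cDC2, and 0.95 higher on the log2 scale in M-cDC1. The other genes called in this list in L and M were Tap1, Tap2, Tapbp, Tapbpl, Psmb8, Psme1 and Psme2, with Canx called in L. Psmb10 and Erap1 were not called, at -0.19 and -0.02 in L and -0.17 and 0.20 in M.

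Of 17 other class I genes linked to the MHC, 15 were in the table and 10 passed the filter. Of these, 1 was higher and 3 lower in L-cDC1 than in L-cDC2, and 2 higher and 3 lower in M-cDC1 than in M-cDC2. These 4 and 5 calls among 10 genes are near the 39.5% (L) and 38.1% (M) called over all genes, and the list's medians were -0.02 and 0.0026, against -0.19 and -0.18 over all genes. H2-M2 differed most, at 7.46 ± 1.94 FPKM in L-cDC1 and 53.0 ± 17.7 FPKM in L-cDC2, and 8.45 ± 3.14 FPKM in M-cDC1 and 119 ± 17.0 FPKM in M-cDC2. Its log2 differences were -2.64 in L and -3.73 in M (limma adjusted p = 6.89e-06 and 2.08e-07). Between L-cDC2 and M-cDC2 the libraries of H2-M2 did not overlap, and the difference of -1.21 did not pass (limma adjusted p = 0.0555). Under the alternatives the limma adjusted p of this difference ran from 0.00376 to 0.215, so whether it passes depends on the setting. H2-M5 was higher in cDC1, at 7.96 FPKM in L-cDC1 and 3.48 FPKM in L-cDC2 (limma adjusted p = 0.00239), and by 1.71 on the log2 scale in M. H2-T24 was lower, at -0.90 in L and -1.42 in M. H2-T10 was -0.78 in L and -0.39 in M, where the call ended without any 1 of the 6 M libraries (limma adjusted p = 0.0654 to 0.089) and after median-of-ratios scaling (-0.22, adjusted p = 0.244). H2-T22, a ligand of gamma delta T cells, was 0.54 higher in M-cDC1 (limma adjusted p = 0.0146), a call that ended without M-cDC1 replicate 3 or M-cDC2 replicate 2 (adjusted p = 0.069 and 0.0651).

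Of 14 class I-like genes outside the MHC, 7 passed the filter, and 4 were higher and 0 lower in L-cDC1, 3 higher and 1 lower in M-cDC1. Over all genes, 12.9% were higher and 26.6% lower in L, and 12.7% and 25.4% in M. The list's medians were 0.37 in L and 0.12 in M, against -0.19 and -0.18 over all genes. Cd1d1, which presents lipids to NKT cells, was 133 ± 6.20 FPKM in L-cDC1 and 47.3 ± 1.06 FPKM in L-cDC2, and 131 ± 6.67 FPKM in M-cDC1 and 38.3 ± 0.942 FPKM in M-cDC2. Fcgrt was 2.26 higher in L-cDC1 and 1.62 in M-cDC1, and Procr, the protein C receptor, 0.80 and 0.83. Ulbp1, an NKG2D ligand, was lower in M-cDC1 at -0.96 (limma adjusted p = 0.01), a call that ended after quantile normalization (-0.68, adjusted p = 0.0538).

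Among 9 partners of Nlrc5 and related factors, 1 was higher and 4 lower in L-cDC1, and 0 higher and 1 lower in M-cDC1, where 39.5% (L) and 38.1% (M) of all genes were called. The list's medians were -0.27 in L and -0.24 in M, against -0.19 and -0.18 over all genes. Rfx5, a DNA-binding RFX subunit, was 4.74 ± 0.598 FPKM in L-cDC1 and 10.098 ± 0.686 FPKM in L-cDC2, and 4.24 ± 2.04 FPKM in M-cDC1 and 10.7 ± 1.195 FPKM in M-cDC2. The difference was -0.96 in L and -1.25 in M (limma adjusted p = 0.00761 and 0.00133). The RFX subunit Rfxap was 0.82 higher in L-cDC1, and Rfxank, Creb1 and the NF-Y subunit Nfyc were lower at -0.69, -0.62 and -0.45 (limma adjusted p = 0.00168, 0.00608, 0.00525 and 0.0182). After quantile normalization the calls of Rfxank and Creb1 ended (limma adjusted p = 0.078 and 0.0694), and that of Rfxank also ended without the libraries numbered 1 (0.115). In M these 4 were not called as deposited, at 0.30, -0.33, -0.34 and -0.24. Rfxap in M passed after median-of-ratios scaling (0.49, limma adjusted p = 0.0347), quantile normalization (0.48, 0.0439) and with limma-voom (0.55, 0.0347). Whether these differences differ between L and M was tested by the interaction, which called none of them. Ciita, the class II transactivator, was 93.2 FPKM in L-cDC1 and 100.47 FPKM in L-cDC2, and 89.3 FPKM in M-cDC1 and 99.7 FPKM in M-cDC2, and was not called.

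Of 14 interferon and NF-kB inputs, 2 were higher and 7 lower in L-cDC1, and 2 higher and 8 lower in M-cDC1. Over all genes, 12.9% were higher and 26.6% lower in L, and 12.7% and 25.4% in M, a split that depends on scaling. The list's medians were -0.30 in L and -0.61 in M, against -0.19 and -0.18 over all genes. Nfkb1, the p50 subunit, was 10.3 ± 1.86 FPKM in L-cDC1 and 58.5 ± 3.04 FPKM in L-cDC2, and 8.70 ± 0.987 FPKM in M-cDC1 and 59.7 ± 3.98 FPKM in M-cDC2. The kinase Jak2 was -1.34 in L and -1.40 in M, the type I interferon receptor chain Ifnar2 -0.93 and -1.36, and the signal transducer Stat2 -1.03 and -0.81. The gamma interferon receptor chain Ifngr1 was higher in cDC1, by 0.57 and 0.51, and the kinase Tyk2 by 0.65 and 0.70. Of 9 genes of cross-presentation and class I traffic, 3 were higher and 3 lower in each, where 39.5% (L) and 38.1% (M) of all genes were called. The list's medians were 0.13 in L and -0.03 in M, against -0.19 and -0.18 over all genes. Wdfy4, needed for cross-presentation by cDC1s, was 167 ± 1.08 FPKM in L-cDC1 and 86.0 ± 8.05 FPKM in L-cDC2, and 147 ± 26.6 FPKM in M-cDC1 and 71.5 ± 2.35 FPKM in M-cDC2. Rab43 was 1.45 and 0.95 higher. Cybb, the NADPH oxidase subunit, was 1.77 ± 1.58 FPKM in L-cDC1 and 93.0 ± 0.387 FPKM in L-cDC2, and 0.547 ± 0.263 FPKM in M-cDC1 and 93.3 ± 8.68 FPKM in M-cDC2. Rac2, also of the oxidase, was -1.41 and -1.29, and Lnpep, an endosomal peptidase, -1.02 and -0.85. Snap23 was called higher in M at 0.30 (limma adjusted p = 0.0411, and up to 0.121 without 1 library) and Cd74, the invariant chain, in L at 0.38 (adjusted p = 0.00368), a call that ended after quantile normalization and without the filter. The lists were chosen with earlier results of these data known.

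H2-D1 and H2-Q7 were highest in the libraries numbered 1 of every group, a pattern noticed after their values were seen. H2-Q7 (Qa-2) had 20.5 FPKM in L-cDC1 library 1 and 21.6 FPKM in M-cDC1 library 1, and 25.1 FPKM in L-cDC2 library 1 and 23.4 FPKM in M-cDC2 library 1. The other 8 libraries were at 12.2 to 15.4 FPKM. H2-D1 was 1631 to 1874 FPKM in the 4 libraries numbered 1, above the 1255 to 1611 FPKM of the other 8. Library 1 over the mean of libraries 2 and 3 was 1.47 to 1.89 for H2-Q7 and 1.22 to 1.35 for H2-D1 in the 4 groups, whereas it was 0.885 to 0.967 for H2-K1. H2-K1 over H2-D1 was accordingly 0.402 to 0.520 in libraries numbered 1 and 0.550 to 0.769 in the others. For H2-Q6, the close relative of H2-Q7, libraries numbered 1 held 27.0 to 31.5 FPKM and the others 15.2 to 32.4 FPKM, which overlap. Over all genes tested, 19 had the 4 libraries numbered 1 above the other 8 and 23 below, 0.338% in all. No test is given, since the genes were picked for this pattern. The library numbered 1 was the deepest of its group in M-cDC1, L-cDC2 and M-cDC2 but not in L-cDC1. Without the 4 libraries numbered 1, the calls of B2m, H2-M3 and Nlrc5 in L stood at -0.77, -0.60 and 0.81 (limma adjusted p = 0.0096, 0.0102 and 0.0495), and that of B2m in M at -0.59 (0.0325). Those of H2-M3, H2-Q4 and Nlrc5 in M did not pass (limma adjusted p = 0.09, 0.169 and 0.22).

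**Figure D5:**
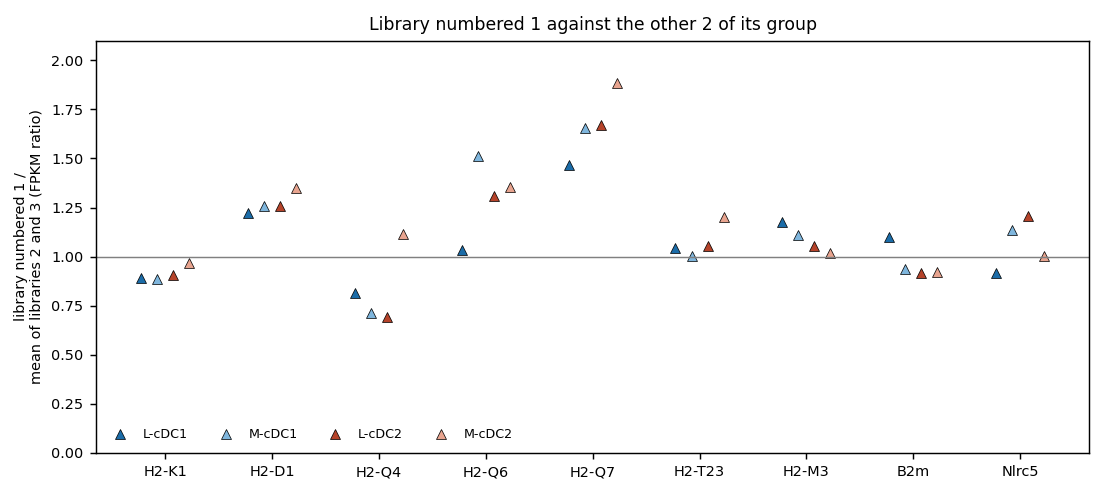
Library numbered 1 divided by the mean of libraries 2 and 3 of its group (y axis, ratio of FPKM, from 0) for each gene (x axis). Each triangle is a group, and the line marks a ratio of 1. All 4 triangles lie at 1.22 to 1.35 for H2-D1 and 1.47 to 1.89 for H2-Q7, and at 0.885 to 0.967 for H2-K1.

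Reads of closely related genes can be split or lost in counting, and how reads matching several genes were assigned is not given in the sources used here. Of the 50-base words in their GENCODE M21 transcripts, 34.9% for H2-Q7 and 32% for H2-Q6 also occur in transcripts of other genes, most often in each other's. The share was 28.8% for H2-T23, 24.3% for H2-Q4, 14.3% for H2-D1 and 8.79% for H2-K1. Of the H2-D1 words, 7.4% also occur in transcripts of H2-Q1 and 5.99% in those of H2-Q7. Whether shared reads tie the H2-Q7 values to those of H2-D1 in the libraries numbered 1 was not tested. The share over all other genes was 0.576% for H2-M3 and 0% for B2m and Nlrc5. The values of the H2-Q genes and H2-T23 are therefore uncertain, whereas B2m, H2-M3 and Nlrc5 have almost no shared words. The library kits do not mark strand, so reads of an overlapping antisense gene cannot be told apart.

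The genes nearest in pattern over the 12 libraries were found by the root mean square (RMS) difference of centred log2 values among 6271 genes of at least 5 FPKM. B2m was nearest to Cd53 and Rab14 (RMS 0.0965 and 0.112), where the median over all candidates was 0.415. Nlrc5 was nearest to Ppp1r15b and Rab11fip4 (0.141 and 0.148, median 0.509). H2-K1 was nearest to Khdc4 and Gpsm3 (0.0808 and 0.0816), and H2-D1 to Rfc1 and Nt5c2 (0.111 and 0.121). H2-T23 was nearest to Arhgef6 and Ctsb (0.0505 and 0.0763), H2-M3 to Ptbp3 and Slc25a11 (0.0763 and 0.0806), and H2-Q4 to Irf1 and Tob2 (0.0964 and 0.120). H2-Q6 was nearest to Mus81 and Ptcd1 (0.163 and 0.176) and H2-Q7 to Tspyl1 and Insig1 (0.198 and 0.209). No member was nearest to another member. These are descriptions over 12 libraries that share groups and depth.

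In the deposited table, whose build is not named, the class I heavy chains lie on chromosome 17. H2-K1 is at 34214991 to 34219321 on the minus strand, and H2-D1 at 35481706 to 35486475, H2-Q4 at 35598593 to 35604266, H2-Q6 at 35643826 to 35649031 and H2-Q7 at 35658131 to 35662749 on the plus strand. H2-T23 is at 36340665 to 36343747 on the minus strand and H2-M3 at 37581111 to 37585375 on the plus strand. B2m is on chromosome 2 at 121978167 to 121983564 and Nlrc5 on chromosome 8 at 95160984 to 95253900, both on the plus strand. These starts differ from those of the promoter windows above, which are in GRCm38.p6.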

How the data were processed

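RNA of sorted spleen cDCs was made into libraries with SMART-Seq HT and Nextera XT, per the labels' protocols. The authors deposited FPKM values per gene and library. Tools listed, per the submitters' processing notes, are the aligner STAR 2.7.9a, the counter featureCounts 2.0.1, the trimmers cutadapt 3.7, Trimmomatic 0.39 and Trim Galore 0.6.7, and DESeq2 1.20.0. The notes list the build GRCh38, although the gene symbols are those of mouse. Whole reads were recovered from FPKM times gene length, and 100% of values above 0 came out whole within 0.01 read. Genes at 1 FPKM or more in 3 or more libraries were fitted as log2(FPKM + 1) over all 4 groups with limma 3.58.1 (R 4.3.3, intensity trend, Benjamini-Hochberg adjustment over 12434 genes, threshold 0.05). A difference on this scale understates the change of low genes. The script was tested on simulated data. Other steps used Python 3.11.15, numpy 2.4.6, pandas 2.3.3, scipy 1.17.1 and matplotlib 3.10.9.

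The named genes are the 9 members, up to 3 called genes with the smallest p per direction from each pathway list, and for each member the 2 genes of most similar pattern. Further list genes were named once their values were known. The members and lists were chosen with earlier results of these data known, and so ratios over members carry no p-value. Promoters are from RefSeq (GRCm38.p6). Alternatives changed the pseudocount, filter, scaling, trend, groups fitted, replicate block and libraries, and limma-voom and a fit without libraries numbered 1 were added after the data were seen.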

Additional observations from a re-analysis of the deposited data

How the results depend on the processing

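Of 2206 values of single genes under the alternatives, 2075 kept their direction and side of the threshold, 69 lost a call, 15 gained one and 47 changed sign. Except where a cause is shown by the alternative's construction (fewer genes or samples), the cause was not tested. All genes called for L minus M in cDC1 numbered 49, and 80 with a pseudocount of 0.1, 14 with 5, 14 without a filter, 82 at 5 FPKM or more, 17 with only the 2 groups compared and 139 without libraries numbered 1. In cDC2 they numbered 227, and 142, 137 and 142 under the last 3 settings. For the interaction 37 were called, and 21 with a pseudocount of 0.1, 9 with limma-voom and 62 without libraries numbered 1. Of the 9 members, 4 were called for cDC1 minus cDC2 in M, and 1 without a filter, 2 each with median-of-ratios scaling, no trend or limma-voom, and 1 without libraries numbered 1.

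Leaving out 1 library gave 24 to 102 calls over all genes for L minus M in cDC1, 146 to 232 in cDC2, 10 to 38 for the interaction, and 1 to 4 members for cDC1 minus cDC2 in M and 2 to 3 in L. Averaged over the subsets, the heavy chain to B2m ratio was then 0.0668 to 0.222 higher in L than in M. The share of H2-K1 and H2-D1 differed by -1.08 to -0.672 percentage points. Within subsets and with all libraries, the ratio differed by 0.273 in cDC1 and 0.0471 in cDC2. The share differed by 0.0445 points in cDC1 and -1.87 points in cDC2. With 1 library left out, cDC1 minus cDC2 averaged over L and M was 0.514 to 0.67 (ratio) and 1.54 to 1.95 points (share). Signs changed for H2-K1 in L minus M in cDC1 (-0.0783 to 0.0386), H2-D1 in cDC1 (-0.0263 to 0.18) and cDC2 (-0.175 to 0.0795), H2-Q4 in cDC2 (-0.228 to 0.0274), H2-Q7 in cDC1 (-0.137 to 0.266) and cDC2 (-0.0309 to 0.491), H2-T23 in cDC2 (-0.0457 to 0.139) and Nlrc5 in cDC2 (-0.0122 to 0.142). For cDC1 minus cDC2 they changed for H2-D1 in M (-0.0165 to 0.237), H2-Q6 in L (-0.129 to 0.179) and M (-0.244 to 0.186), H2-Q7 in L (-0.335 to 0.0735) and M (-0.223 to 0.293), and H2-T23 in L (-0.0164 to 0.0589) and M (-0.0785 to 0.107). None of these differences was called.

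Scaling also turned signs. Under quantile normalization, L minus M was 0.0949 in cDC1 and 0.0932 in cDC2 for H2-K1, 0.0229 in cDC2 for H2-D1 and -0.0148 in cDC1 for H2-Q7. There cDC1 minus cDC2 was -0.13 in L and -0.284 in M for H2-D1, 0.111 in M for H2-Q6, and -0.0031 in L and -0.101 in M for H2-T23. With median-of-ratios scaling, cDC1 minus cDC2 was 0.0926 for H2-K1 and 0.0261 for H2-Q7 in L, and 0.146 for H2-Q6 in M. With limma-voom it was 0.0942 and 0.00755 in L and 0.15 in M for the same genes, and H2-Q7 was -0.0154 for L minus M in cDC1. Without libraries numbered 1, L minus M in cDC2 was 0.0734 for H2-Q4 and -0.0078 for Nlrc5.

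The labels number libraries 1 to 3 in each group. Same-numbered libraries of different groups correlated over 0.1 in 3 of 18 pairs of libraries (median 0.034). Differently numbered ones did so in 0 of 36 pairs (median -0.018), and 11 of 12 libraries correlated best with their own number. Since few same-numbered pairs passed 0.1, the numbers were not taken as pairs, although some calls depend on this choice. With the replicate block, H2-K1 passed for cDC1 minus cDC2 in M (limma adjusted p = 0.0306) and H2-D1 in L (0.0118), and Nlrc5 in M missed (0.0506). The replicate block cannot change the mean L minus M difference in the heavy chain to B2m ratio, 0.160 averaged over the subsets. It changes the spread that the difference is set against: all 6 same-numbered L minus M differences were above 0, whereas L and M libraries overlapped. The planned edgeR alternative was not run, since the deposited unit is FPKM. Depth limited H2-Q4 most, with 195 to 456 reads per library.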
